A study of Mus musculus with 11 samples.

Results

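Collagens and laminins are the main structural proteins of the extracellular matrix, and 54 of their genes, 44 for collagen chains and 10 for laminin chains, were followed across 4 GFP reporter lines of the mouse dentate gyrus. A gene was taken by its name alone, as a symbol made of Col, a number, a and a number, or of Lama, Lamb or Lamc and a number. The 54 genes stood among 16527 tested, and 56 probe sets with 1 symbol carried such a name. Col6a5 and Col6a6 had a second probe set each, and the one with the higher mean over all arrays was used. All 54 genes passed the filter on low values, a level above the 25th percentile of the array on at least 2 arrays.

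The RNA came from GFP-positive cells sorted by flow cytometry from dentate gyrus, dorsal and ventral, that had been microdissected from brain slices of adult mice at postnatal day 35. PomcGFP mice (2 arrays) carry a transgene that drives GFP with Pomc, the pro-opiomelanocortin gene, a reporter used for newborn granule neurons. In kiTbr2GFP mice (3 arrays) GFP is a knock-in at Eomes, the gene of the Tbr2 transcription factor, which marks intermediate neuronal progenitors. In tgTbr2GFP mice (3 arrays) GFP is carried by a BAC transgene of Eomes. NesGFP mice (3 arrays) carry a GFP transgene of Nestin, an intermediate filament gene of neural stem cells whose reporters can also label cells of the vessel wall. Sorting gave about 3000 to 5000 cells per group, and their RNA was amplified before it was measured on Affymetrix arrays of the Mouse Gene 1.0 ST type. A reporter marks every cell in which its promoter is active, so each group can hold more than 1 cell type. The labels leave it unstated if each array had its own animals, so a p-value may reflect technical spread alone. The number of arrays limits the precision.

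Values are deposited log2 RMA levels, on which a difference of 1 is a doubling. Array medians lay between 7.005 and 7.149, and arrays of the same line correlated at 0.963 to 0.991. The labels were set against stage genes. Eomes lay at 7.35 to 7.68 in PomcGFP, 9.93 to 10.08 in kiTbr2GFP and 9.83 to 10.39 in tgTbr2GFP, against 8.52 to 9.23 in NesGFP. Nes lay between 5.78 and 6.26 on the arrays of the other lines, against 6.91 to 7.63 in NesGFP. Calb1, a calcium-binding protein of granule neurons, lay at 10.10 to 10.14 in PomcGFP, 6.83 to 7.78 in kiTbr2GFP, 8.03 to 8.72 in tgTbr2GFP and 8.86 to 9.34 in NesGFP. NesGFP was thus above both Tbr2 lines in this neuronal gene. Gfap lay at 9.82 to 9.93 in NesGFP and at 6.98 to 7.89 elsewhere. Neurod1 lay at 7.77 to 8.22 in NesGFP and at 9.915 to 10.536 elsewhere, and Dcx at 8.57 to 9.15 and 10.76 to 11.36. Pomc itself passed the test in none of the 4 comparisons.

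A laminin is a cross-shaped protein assembled from an α, a β and a γ chain. Laminins and sheets of type IV collagen, joined by nidogen and perlecan, form the basement membrane, which in the brain surrounds blood vessels and lies under the meninges. Fibrillar collagens form the fibres of connective tissue, and the FACIT collagens (fibril-associated collagens with interrupted triple helices) coat such fibres. In the stem cell niches of the adult brain, laminin-rich membranes of vessels are contacted by the processes of neural stem cells.

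Most of the 54 genes varied little over the 4 lines, and 3 laminin chains, Lama4, Lamc1 and Lamb2, had the largest differences in the Tbr2 lines against NesGFP. All 3 were also lower in PomcGFP than in NesGFP. Differences were tested with limma's moderated test, two-sided, at an adjusted p under 0.05 over all 16527 genes (Benjamini-Hochberg). In both Tbr2 lines against NesGFP, 9 of the 54 genes passed (16.7%), against 48.9% of all genes tested. Col12a1, Col11a1, Col10a1 and Lamb1 were higher, 4 genes where 19.8% of all genes were higher. Lama4, Lamc1, Lamb2, Col4a1 and Col4a2 were lower, 5 genes where 29.1% of all genes were lower. The median difference was 0.09 over the 54 genes and -0.02 over all genes. A moderated F test over the 4 lines passed 10 of the 54 (18.5%), against 43.4% of all genes.

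**Figure D1:**
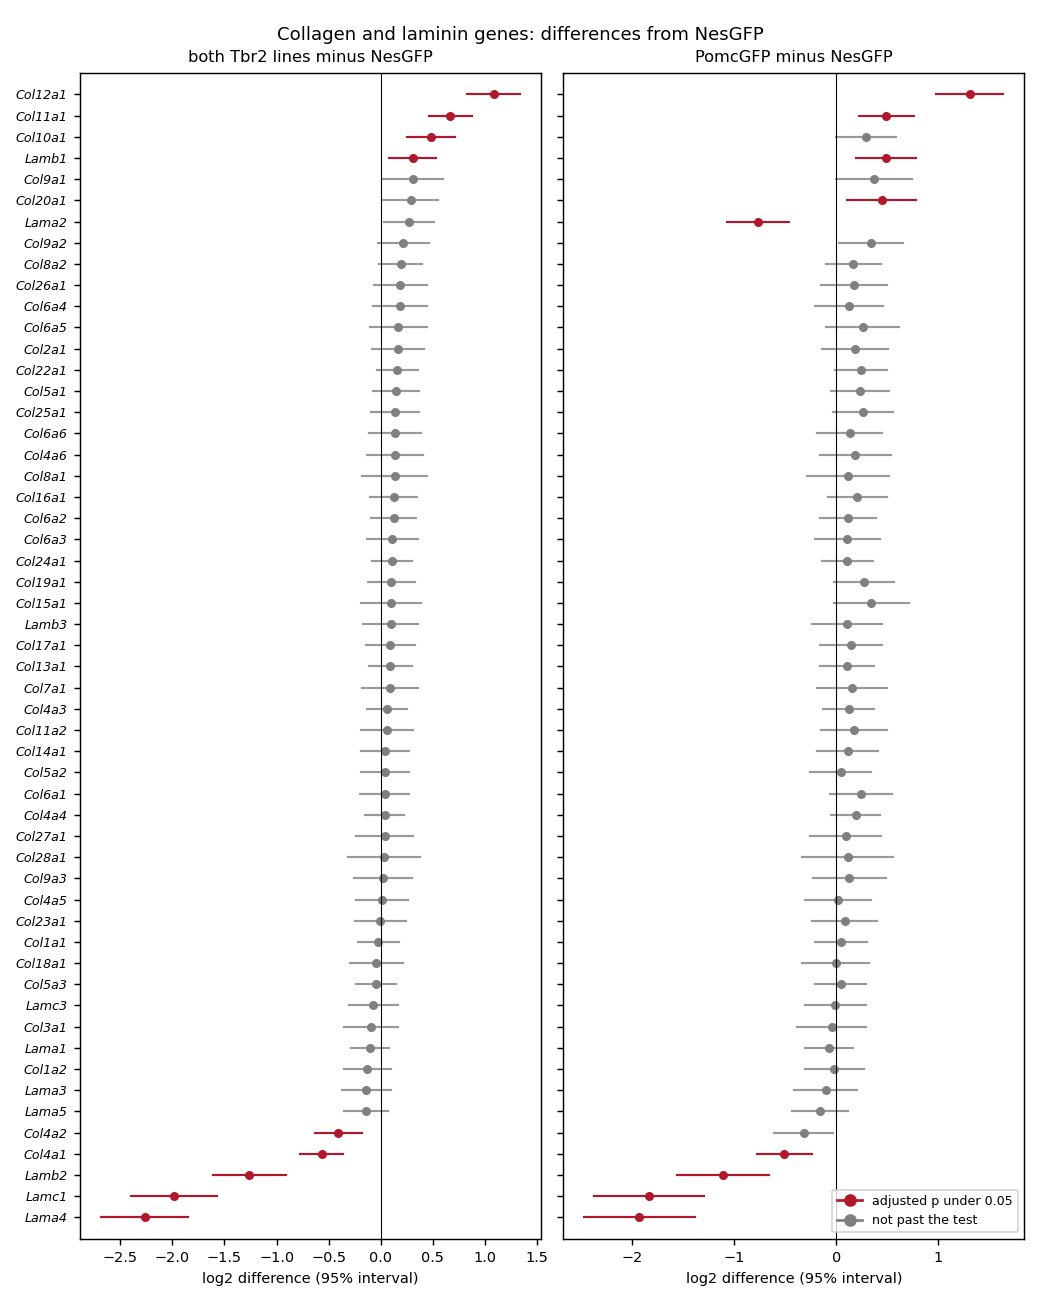
Difference in log2 level for each of the 54 genes, in both Tbr2 lines minus NesGFP and in PomcGFP minus NesGFP, with 95% intervals of the limma fit; red points passed the test. Lama4, Lamc1 and Lamb2 stand to the left, Col12a1 stands to the right, and most other genes lie near 0. Both comparisons use the same 3 NesGFP arrays.

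Lama4 encodes the α4 chain, a laminin chain of vessel walls. Its level was 6.67 on both PomcGFP arrays, 6.26, 6.04 and 6.45 on the kiTbr2GFP arrays and 6.49, 6.21 and 6.58 on the tgTbr2GFP arrays, against 9.01, 8.78 and 8.02 on the NesGFP arrays. No array of the other lines came within 1 log2 unit of the lowest NesGFP array, and the Tbr2 values lay close to the 25th percentile of those arrays (6.05 to 6.20), on the second kiTbr2GFP array below it. On the RMA scale, which can understate a difference at such low levels, Lama4 was 4.81-fold lower in the Tbr2 lines than in NesGFP (log2 difference -2.27 ± 0.19 SE, n = 6 and 3 arrays, limma adjusted p = 2.29e-06). In PomcGFP it was 3.81-fold lower than in NesGFP (-1.93 ± 0.25 SE, n = 2 and 3, limma adjusted p = 0.0001). The RefSeq gene lies on chromosome 10 of GRCm38.p6, at chr10:38965515-39110188. These are bulk samples, in which fewer cells of a type and less RNA per cell cannot be told apart.

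Lamc1 encodes the γ1 chain, a part of most laminins. It measured 7.96 and 8.16 in PomcGFP, 7.90, 7.98 and 7.90 in kiTbr2GFP and 8.21, 7.66 and 7.81 in tgTbr2GFP, against 9.33, 10.12 and 10.24 in NesGFP. NesGFP did not overlap with the others, and the arrays of NesGFP lay further apart than those of any other line. The difference was -1.99 ± 0.19 (SE) in the Tbr2 lines against NesGFP, a 3.96-fold lower level (limma adjusted p = 5.78e-06). It was -1.84 ± 0.24 (SE) in PomcGFP against NesGFP, 3.57-fold lower (limma adjusted p = 0.000135). Lamc1 lies at chr1:153218922-153332786.

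Lamb2 encodes the β2 chain, found in basement membranes of vessels and at neuromuscular junctions. It read 7.67 on both PomcGFP arrays, 7.24, 7.51 and 7.71 in kiTbr2GFP and 7.47, 7.51 and 7.67 in tgTbr2GFP, against 9.10, 8.91 and 8.33 in NesGFP. The Tbr2 and PomcGFP arrays all lay below the lowest NesGFP array. Lamb2 was 2.40-fold lower in the Tbr2 lines than in NesGFP (-1.26 ± 0.16 SE, limma adjusted p = 5.36e-05) and 2.16-fold lower in PomcGFP than in NesGFP (-1.11 ± 0.21 SE, limma adjusted p = 0.00131). On the 3 NesGFP arrays, Lama4 and Lamb2 were both highest on the first array and lowest on the third, while Lamc1 was lowest on the first and highest on the third. The NesGFP SD was 0.52 for Lama4, 0.50 for Lamc1 and 0.40 for Lamb2. In the other lines it was at most 0.20, 0.28 and 0.23. The fit shares 1 spread over the lines, so the SE of these genes against NesGFP may be too small.

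**Figure D2:**
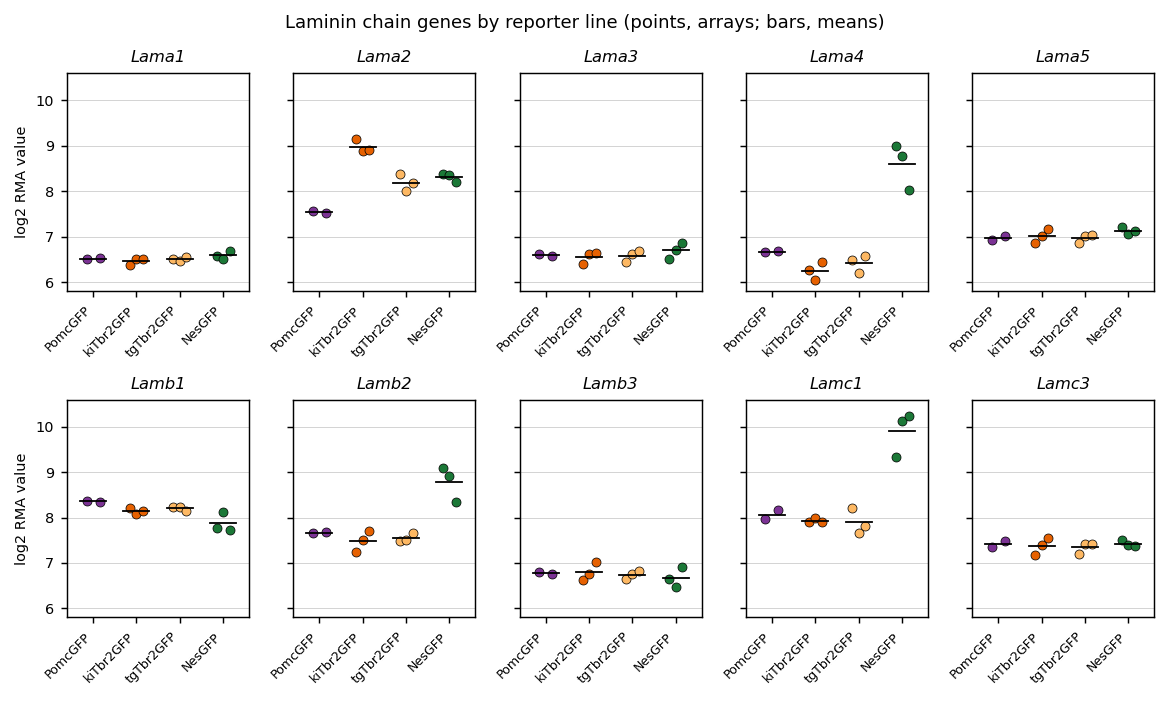
Log2 RMA level of the 10 laminin genes on each of the 11 arrays, by line, with PomcGFP and the Tbr2 lines left of NesGFP; points are arrays and bars are line means. Lama4, Lamc1 and Lamb2 are high in NesGFP alone, Lama2 is highest in kiTbr2GFP and lowest in PomcGFP, Lamb1 is somewhat lower in NesGFP, and Lama1, Lama3, Lama5, Lamb3 and Lamc3 vary little.

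The sequence upstream of Lamb2 is shown as an example from a laminin gene that was lower. The stretch is chr9:108479612-108479846 of GRCm38.p6, plus strand, 5′ to 3′, and ends at the base before the annotated gene. It was searched on both strands for the CCAAT motif, the GC box with the letters GGGCGG and the TATA box with the letters TATAAA. Matches would be in capitals, and none of the 3 motifs was in this window.
Lamb2: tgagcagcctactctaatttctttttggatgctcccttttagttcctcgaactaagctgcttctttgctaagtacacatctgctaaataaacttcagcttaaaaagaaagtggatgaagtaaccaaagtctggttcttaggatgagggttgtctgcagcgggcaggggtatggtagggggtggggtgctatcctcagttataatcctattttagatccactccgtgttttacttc
Of 32851 RefSeq promoter windows of the same 235 bases, 32.6% held the first motif, 30.6% the second and 11.9% the third.

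Lamb1, the β1 chain that takes the place of β2 in many laminins, differed the other way. It measured 8.37 and 8.34 in PomcGFP, 8.22, 8.09 and 8.15 in kiTbr2GFP and 8.22, 8.24 and 8.16 in tgTbr2GFP, against 7.76, 8.13 and 7.73 in NesGFP. The second NesGFP array lay inside the Tbr2 range (8.09 to 8.24), so these groups overlapped. The PomcGFP arrays lay above all others. The difference of 0.31 ± 0.10 (SE) between the Tbr2 lines and NesGFP passed the test (limma adjusted p = 0.0279), but its adjusted p was 0.0807 with each array centred on its median, 0.106 when the first of the NesGFP arrays was left out and 0.1 for the third, 0.0510 without the first kiTbr2GFP array and 0.0551 without the second tgTbr2GFP array. In PomcGFP against NesGFP it was 0.48 ± 0.13 (SE, limma adjusted p = 0.0128), with an adjusted p of 0.0810 when those 2 lines were fitted alone, 0.0750 without the first PomcGFP array and 0.0638 without the second.

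Lama2 encodes the α2 chain, the laminin chain whose loss causes a congenital muscular dystrophy and which astrocyte endfeet and mural cells add to vessel membranes. It stood at 7.57 and 7.53 in PomcGFP, at 9.16, 8.89 and 8.90 in kiTbr2GFP, at 8.38, 8.01 and 8.19 in tgTbr2GFP, and at 8.38, 8.36 and 8.21 in NesGFP. The kiTbr2GFP arrays were above every other array and the PomcGFP arrays below every other, while tgTbr2GFP and NesGFP overlapped. Of the 54 genes, Lama2 alone passed the test in PomcGFP against both Tbr2 lines (1.85% of the 54, against 3.73% of all genes, and 1.73% of all genes lower). It was 2.06-fold lower there (-1.04 ± 0.12 SE, n = 2 and 6, limma adjusted p = 0.000906). Against NesGFP it was lower in PomcGFP by a log2 difference of -0.77 ± 0.14 (SE, limma adjusted p = 0.00112). In PomcGFP against both Tbr2 lines (2% of all genes higher), 2 of 7 oligodendrocyte markers were higher (Mobp 1.82, Mbp 1.46). So were 3 of 7 microglia markers, the largest Ctss at 1.60. Of 5 Cajal-Retzius cell markers 2 were lower (Ndnf -3.10, Reln -2.61), as was 1 of 8 meningeal fibroblast markers. The part of these cell types in the Lama2 result was not tested.

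Lama2 was also the gene of the 54 that passed in kiTbr2GFP against tgTbr2GFP, where 1.12% of all genes passed and 0.436% were higher. Its level was 1.73-fold higher in kiTbr2GFP (0.79 ± 0.12 SE, n = 3 and 3, limma adjusted p = 0.0133). The call rests on few arrays: the adjusted p was 0.0616 without the first kiTbr2GFP array and 0.0547 without the third tgTbr2GFP array. Since the Tbr2 lines differed in Lama2, their mean against NesGFP joins unlike lines. That difference, 0.27 ± 0.11 (SE), missed the threshold (limma adjusted p = 0.0569). It passed under cyclic loess (0.41, adjusted p = 0.00726), without the second tgTbr2GFP array (adjusted p = 0.0345) and with the replicate number as a block. Summed levels of some markers of other cell types also lay apart between the Tbr2 lines. That of 8 astrocyte markers was 11.56 to 11.88 in kiTbr2GFP and 12.15 to 12.49 in tgTbr2GFP. That of 5 Cajal-Retzius cell markers was 11.24 to 11.43 in kiTbr2GFP and 11.78 to 12.56 in tgTbr2GFP. Tested singly between these lines, 1 of the 8 astrocyte markers passed (Slc1a3, -0.65, limma adjusted p = 0.016) and 0 of the 5 Cajal-Retzius cell markers. Of the tgTbr2GFP arrays the first alone was high in summed oligodendrocyte markers (12.24, against 10.31 and 10.67). The summed choroid plexus level was also high on that array (12.33, against 9.98 and 9.96). Of its 5 markers Ttr varied most (SE 1.08 between the Tbr2 lines, 0.10 to 0.23 for the others), and such a sum can rest on 1 gene. Mki67, a proliferation marker, lay at 8.95 to 9.30 in kiTbr2GFP and at 7.71 to 8.08 in tgTbr2GFP. Their part in the Lama2 result was not tested.

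The other 5 laminin genes did not pass in any comparison. Lama1, the α1 chain of early embryonic membranes, read 6.51 and 6.53 in PomcGFP, 6.38, 6.51 and 6.51 in kiTbr2GFP, 6.51, 6.45 and 6.55 in tgTbr2GFP, and 6.58, 6.51 and 6.68 in NesGFP. Lama3, an α chain of skin laminin, read 6.62 and 6.57 in PomcGFP, 6.39, 6.61 and 6.63 in kiTbr2GFP, 6.43, 6.62 and 6.69 in tgTbr2GFP, and 6.51, 6.72 and 6.87 in NesGFP. Lama5, the α5 chain of mature vessel membranes, read 6.94 and 7.01 in PomcGFP, 6.86, 7.02 and 7.17 in kiTbr2GFP, 6.86, 7.01 and 7.04 in tgTbr2GFP, and 7.21, 7.05 and 7.13 in NesGFP. The Tbr2 and NesGFP ranges touched or overlapped in each of the 3, although the Lama5 levels of tgTbr2GFP and PomcGFP lay below all NesGFP arrays, with differences of -0.11, -0.14 and -0.14 between the Tbr2 lines and NesGFP (limma adjusted p = 0.322, 0.310 and 0.253). Lamb3, the β chain of skin laminin, read 6.80 and 6.76 in PomcGFP, 6.62, 6.76 and 7.02 in kiTbr2GFP, 6.65, 6.76 and 6.82 in tgTbr2GFP, and 6.66, 6.46 and 6.91 in NesGFP. Lamc3, the γ3 chain, read 7.35 and 7.49 in PomcGFP, 7.17, 7.39 and 7.55 in kiTbr2GFP, 7.20, 7.41 and 7.42 in tgTbr2GFP, and 7.51, 7.39 and 7.38 in NesGFP. Both genes overlapped between the lines, and the differences were 0.09 for Lamb3 and -0.07 for Lamc3 (limma adjusted p = 0.542 and 0.612).

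Most markers of vessel and meningeal cells were lower in the Tbr2 lines than in NesGFP. All 13 endothelial markers tested were lower in the Tbr2 lines than in NesGFP, with a median difference of -3.17, among them the transporter Slco1a4 (-3.98) and the endomucin gene Emcn (-3.98). Of 11 mural cell markers 10 were lower, led by the vitronectin gene Vtn (-4.01) and the smooth muscle actin gene Acta2 (-3.83). All 8 meningeal fibroblast markers tested were lower, with decorin (Dcn, -2.14) and the transporter Slc6a13 (-2.00) first. In PomcGFP against NesGFP 13 of 13, 10 of 11 and 7 of 8 of these markers were lower. Over all genes tested, 29.1% were lower and 19.8% higher in the Tbr2 lines against NesGFP. In PomcGFP against NesGFP 24% were lower and 15.9% higher. The counts here and those of the glial and other markers below stand beside these shares.

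The summed endothelial level was 10.78 to 11.05 in PomcGFP, 10.11 to 10.38 in kiTbr2GFP and 10.24 to 10.95 in tgTbr2GFP, against 13.45 to 13.58 in NesGFP. The summed mural level was 10.59 to 11.21 in PomcGFP, 10.38 to 10.48 in kiTbr2GFP and 10.32 to 10.86 in tgTbr2GFP, against 13.02 to 13.08 in NesGFP. The summed meningeal fibroblast level was 9.72 to 9.81 in PomcGFP, 9.69 to 9.98 in kiTbr2GFP and 9.78 to 9.96 in tgTbr2GFP, against 10.98 to 11.23 in NesGFP. NesGFP stood above the other lines in all 3, without overlap. This was not particular to vessel and meningeal markers. The summed astrocyte level was 13.42 to 13.59 in NesGFP and at most 12.49 elsewhere. That of oligodendrocyte precursors was 12.46 to 12.66 and at most 10.83, and that of oligodendrocytes 13.82 to 14.0 and at most 12.24. Some markers lay low outside NesGFP. In kiTbr2GFP the means of Lum (a fibroblast marker), Slco1a4 and Emcn were 4.57, 5.26 and 5.48, below the 25th percentile of each array of that line (6.06 to 6.20). A gene this low can have passed the filter through NesGFP alone, so it could hardly have been counted as higher elsewhere.

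Glial markers moved the same way: 8 of 8 for astrocytes (Gfap -2.50, Gja1 -2.38), 7 of 7 for oligodendrocyte precursors (Pdgfra -3.14, Gpr17 -2.63) and 7 of 7 tested for oligodendrocytes (Mag -4.48, Opalin -4.39) were lower in the Tbr2 lines than in NesGFP. Of 7 microglia markers 1 was lower, C1qc at -0.84. Of 5 Cajal-Retzius cell markers 4 were higher, led by Reln at 2.79 and Ndnf at 2.33, and of 5 choroid plexus markers 2 were higher, Kcnj13 at 2.14 and Folr1 at 0.35. In PomcGFP against NesGFP 8 of 8 astrocyte, 7 of 7 oligodendrocyte precursor and 4 of 7 oligodendrocyte markers were lower, and 3 of 7 microglia markers were higher. The part of these cell types in the collagen and laminin results was not tested.

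**Figure D3:**
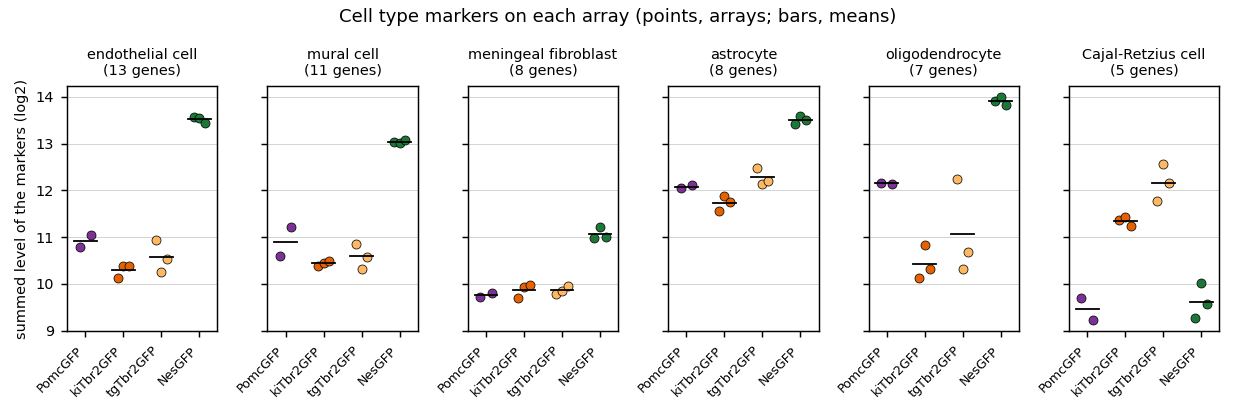
Summed log2 level of 6 marker lists for other cell types on each of the 11 arrays, by line; points are arrays and bars are line means. The endothelial, mural, meningeal fibroblast, astrocyte and oligodendrocyte lists are higher on every NesGFP array than on any array of the other lines. The Cajal-Retzius list is higher in the Tbr2 lines.

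Col4a1 and Col4a2 encode the α1 and α2 chains of the type IV collagen found in nearly every basement membrane, and their differences were smaller than those of the laminin chains above. Col4a1 read 7.16 and 7.23 in PomcGFP, 6.96, 7.20 and 7.23 in kiTbr2GFP and 7.09, 7.08 and 7.26 in tgTbr2GFP, against 7.77, 7.70 and 7.63 in NesGFP. No array of the other lines reached the lowest NesGFP array. Col4a1 was 1.48-fold lower in the Tbr2 lines than in NesGFP (-0.57 ± 0.09 SE, limma adjusted p = 0.000421) and 1.42-fold lower in PomcGFP than in NesGFP (-0.51 ± 0.12 SE, limma adjusted p = 0.00632). Without the first PomcGFP array the adjusted p of the second comparison was 0.0544.

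Col4a2 read 7.41 on both PomcGFP arrays, 7.14, 7.41 and 7.42 in kiTbr2GFP and 7.21, 7.36 and 7.41 in tgTbr2GFP, against 7.89, 7.61 and 7.71 in NesGFP, again without overlap. The PomcGFP values were exactly equal. Col4a2 was 1.33-fold lower in the Tbr2 lines than in NesGFP (-0.41 ± 0.10 SE, limma adjusted p = 0.00631). In PomcGFP against NesGFP it measured -0.32 ± 0.13 (SE), which missed the threshold (limma adjusted p = 0.0770).

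The 2 genes lie head to head on chromosome 8, with RefSeq starts at 11312826 for Col4a1 on the minus strand and 11312805 for Col4a2 on the plus strand, 21 bases apart. Their annotated spans overlap at this end, chr8:11198423-11312889 for Col4a1 and chr8:11312805-11449287 for Col4a2. A stretch at chr8:11312768-11312797 of GRCm38.p6, plus strand, 5′ to 3′, was cut around the CCAAT match nearest before the Col4a2 start. It lies upstream of Col4a2 and inside the annotated span of Col4a1. The capitals mark a CCAAT motif that begins 32 bases before the Col4a2 start.
Col4a2: gctccCCAATttgttggcgctgccccctcc
Of all RefSeq promoters, 5.11% held CCAAT or its reverse in the same 30 positions. The stretch was chosen for its CCAAT match, so this share does not show that the match is rare. GGGCGG, held there by 9.64%, and TATAAA, held there by 2.62%, were not in this stretch.

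The other 4 type IV genes encode the chains of specialised membranes such as that of the kidney glomerulus, and none passed in any comparison. Col4a3 read 7.22 and 7.20 in PomcGFP, 7.06, 7.16 and 7.28 in kiTbr2GFP, 7.06, 7.16 and 7.19 in tgTbr2GFP, and 6.997, 7.137 and 7.131 in NesGFP. Col4a4 read 7.30 and 7.21 in PomcGFP, 6.94, 7.14 and 7.17 in kiTbr2GFP, 7.07, 7.14 and 7.17 in tgTbr2GFP, and 7.08, 7.07 and 7.05 in NesGFP. The Tbr2 and NesGFP arrays of both genes overlapped. Col4a5 read 6.82 on both PomcGFP arrays, 6.61, 6.82 and 7.06 in kiTbr2GFP, 6.68, 6.82 and 6.92 in tgTbr2GFP, and 6.75, 6.72 and 6.95 in NesGFP. Col4a6 read 6.50 and 6.45 in PomcGFP, 6.33, 6.52 and 6.72 in kiTbr2GFP, 6.06, 6.46 and 6.47 in tgTbr2GFP, and 6.21, 6.22 and 6.44 in NesGFP. Differences between the Tbr2 lines and NesGFP ran over these 4 genes between 0.01 and 0.14.

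Col12a1 was the collagen with the largest difference, and it was higher in the lines in which the laminin chains were lower. It encodes a FACIT collagen of tendon, ligament and other dense tissue. It read 8.22 and 8.02 in PomcGFP, 8.24, 8.16 and 7.79 in kiTbr2GFP and 7.77, 7.65 and 7.76 in tgTbr2GFP, against 6.77, 6.96 and 6.70 in NesGFP. Every array of the other lines lay above the highest NesGFP array. Col12a1 was 2.12-fold higher in the Tbr2 lines than in NesGFP (1.08 ± 0.12 SE, limma adjusted p = 1.49e-05) and 2.48-fold higher in PomcGFP than in NesGFP (1.31 ± 0.15 SE, limma adjusted p = 4.9e-05). The kiTbr2GFP minus tgTbr2GFP difference, 0.34 ± 0.13 (SE), missed the threshold (limma adjusted p = 0.405). Col12a1 lies at chr9:79598987-79721141.

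Col11a1, a fibrillar collagen of cartilage, read 8.02 on both PomcGFP arrays, 8.02, 8.11 and 8.25 in kiTbr2GFP and 8.14, 8.26 and 8.42 in tgTbr2GFP, against 7.47, 7.60 and 7.53 in NesGFP. All NesGFP arrays lay below those of the other lines, and the Tbr2 lines overlapped. Col11a1 was 1.59-fold higher in the Tbr2 lines than in NesGFP (0.67 ± 0.09 SE, limma adjusted p = 0.00012) and 1.41-fold higher in PomcGFP than in NesGFP (0.49 ± 0.12 SE, limma adjusted p = 0.00754). Its upstream sequence is shown as the counterpart to Lamb2, from a collagen gene that was higher, at chr3:114030290-114030478, plus strand, 5′ to 3′, ending at the base before the annotated gene. Capitals mark the motifs of the search above.
Col11a1: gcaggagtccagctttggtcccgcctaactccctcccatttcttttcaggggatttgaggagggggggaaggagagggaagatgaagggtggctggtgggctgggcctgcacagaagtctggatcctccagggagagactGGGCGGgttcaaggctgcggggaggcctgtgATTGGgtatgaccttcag
It held 1 GGGCGG, found in 22.6% of all promoters over the same 189 positions, and 1 ATTGG, the reverse of CCAAT, found on either strand in 26.5%. TATAAA, in 8.69% of them, was not found here.

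Col10a1, a short-chain collagen of the cartilage growth plate, read 6.68 and 6.46 in PomcGFP, 6.67, 6.68 and 6.95 in kiTbr2GFP and 6.71, 6.77 and 6.77 in tgTbr2GFP, against 6.12, 6.30 and 6.41 in NesGFP. It was 1.40-fold higher in the Tbr2 lines than in NesGFP (0.48 ± 0.10 SE, limma adjusted p = 0.00245), without overlap. The PomcGFP difference from NesGFP, 0.29 ± 0.13 (SE), missed the threshold (limma adjusted p = 0.105). The RefSeq span of Col10a1 overlaps that of Nt5dc1, which was itself higher in the Tbr2 lines than in NesGFP (0.78 ± 0.18 SE, limma adjusted p = 0.00315). Whether probes of one gene read RNA of the other was not tested.

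Col20a1, another FACIT collagen, read 7.57 and 7.52 in PomcGFP, 7.14, 7.37 and 7.64 in kiTbr2GFP and 7.30, 7.29 and 7.58 in tgTbr2GFP, against 7.11, 7.03 and 7.16 in NesGFP. The PomcGFP arrays lay above NesGFP, and 1 Tbr2 array lay inside the NesGFP range. The PomcGFP difference from NesGFP was 0.45 ± 0.15 (SE, limma adjusted p = 0.0379). The adjusted p rose past the threshold when any of 5 single arrays was left out, to 0.158 without the first PomcGFP array and 0.123 without the second, 0.0630 when NesGFP lost its first array and 0.0851 when it lost its second, and 0.0561 without the second kiTbr2GFP array. With each array centred on its median it was 0.0513. The Tbr2 difference from NesGFP, 0.29 ± 0.12 (SE), missed the threshold (limma adjusted p = 0.0663). It passed under cyclic loess (adjusted p = 0.0187), without the first kiTbr2GFP array (adjusted p = 0.0226) and with the replicate number as a block.

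As a whole, 9 of the 54 genes passed in PomcGFP against NesGFP (16.7%), where 39.9% of all genes passed. Col11a1, Col12a1, Col20a1 and Lamb1 were higher, where 15.9% of all genes were higher. Lama4, Lamc1, Lamb2, Lama2 and Col4a1 were lower, where 24% of all genes were lower. This comparison shares its NesGFP arrays with that of the Tbr2 lines. Of the 53 genes that missed the threshold in PomcGFP against the Tbr2 lines, none had an unadjusted p under 0.05 in limma, and none passed as higher there, where 2% of all genes did.

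**Figure D4:**
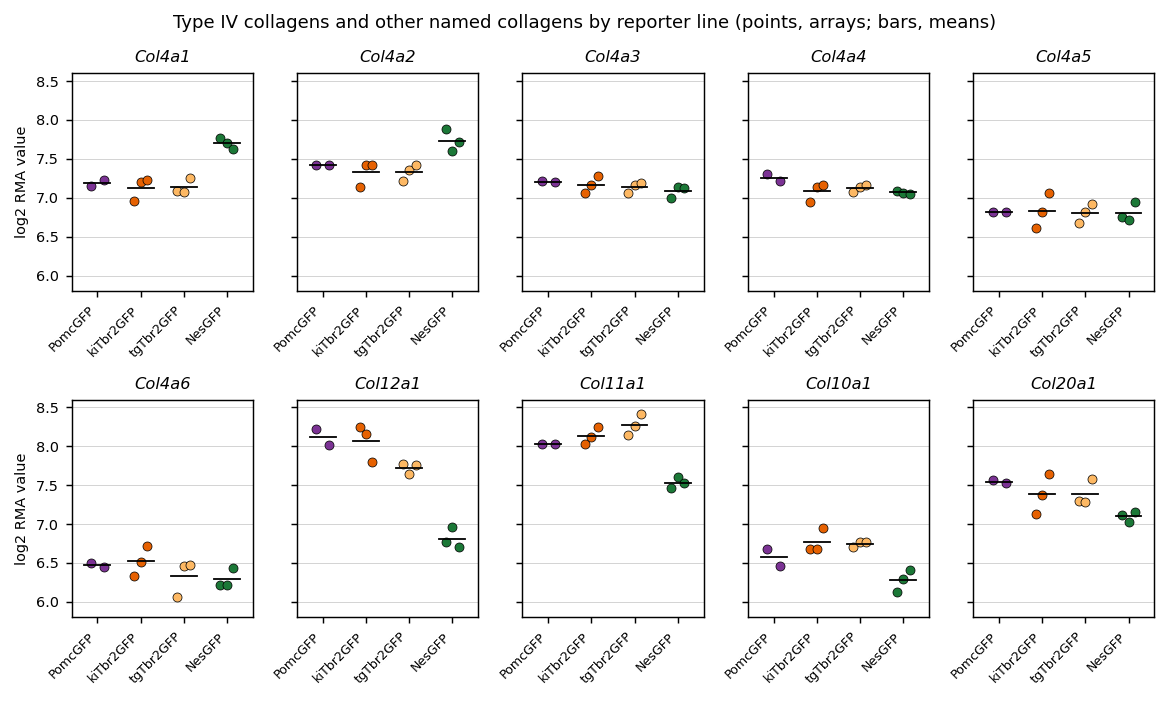
Log2 RMA level of the 6 type IV collagen genes and 4 other collagen genes on each of the 11 arrays, by line; points are arrays and bars are line means. Col4a1 and Col4a2 are higher in NesGFP, Col12a1, Col11a1 and Col10a1 are lower in NesGFP, and Col4a3, Col4a4, Col4a5 and Col4a6 are nearly level.

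The 44 genes outside the F test's calls were 39 collagens and 5 laminins. Their level ranged over the 11 arrays by 0.29 to 0.81, with a median range of 0.46. The 10 genes that passed ranged by 0.64 to 2.96, with a median of 1.24, and the median over all genes tested was 0.88. A range above 1 was found in 5 of the 54 genes (9.26%) and in 43.2% of all genes. The average level of the 44 genes was 7.25 on both PomcGFP arrays, 7.05, 7.24 and 7.35 in kiTbr2GFP, 7.01, 7.16 and 7.31 in tgTbr2GFP, and 7.05, 7.09 and 7.20 in NesGFP. In both Tbr2 lines it varied between arrays of the line by more than the line averages differed. These averages lay near the array medians (7.005 to 7.149). No detection call was among the values, so steady expression and background signal cannot be told apart in a flat gene.

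Among these were the main collagens of fibroblasts. Col1a1, the α1 chain of type I collagen, read 7.79 and 7.85 in PomcGFP, 7.72, 7.79 and 7.84 in kiTbr2GFP, 7.54, 7.79 and 7.82 in tgTbr2GFP, and 7.75, 7.79 and 7.79 in NesGFP. Its partner Col1a2 read 7.56 and 7.68 in PomcGFP, 7.37, 7.60 and 7.67 in kiTbr2GFP, 7.40, 7.46 and 7.56 in tgTbr2GFP, and 7.49, 7.66 and 7.77 in NesGFP. Col3a1, of type III collagen, read 6.89 on both PomcGFP arrays, 6.54, 6.92 and 7.07 in kiTbr2GFP, 6.72, 6.83 and 6.99 in tgTbr2GFP, and 6.94, 6.89 and 6.99 in NesGFP. The Tbr2 and NesGFP ranges overlapped in all 3, with both PomcGFP arrays above NesGFP for Col1a1, while the meningeal fibroblast markers above were lower. The Tbr2 minus NesGFP differences were -0.03 for Col1a1, -0.13 for Col1a2 and -0.09 for Col3a1 (limma adjusted p = 0.837, 0.324 and 0.546). Without a detection call, these flat values do not show that the 3 genes were expressed.

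The rest of the fibrillar class, Col2a1, Col5a1, Col5a2, Col5a3, Col11a2, Col24a1 and Col27a1, did not pass, and with the 3 genes above the 10 differences lay between -0.13 and 0.17. The basement membrane zone collagens Col7a1, the anchoring fibril collagen, and Col15a1 and Col18a1, which carry heparan or chondroitin sulfate chains, gave differences of -0.04 to 0.10. The FACIT genes Col9a1, Col9a2, Col9a3, Col14a1, Col16a1, Col19a1, Col22a1 and Col20a1 gave 0.02 to 0.31. Type VI collagen forms beaded filaments around cells, and Col6a1, Col6a2, Col6a3, Col6a4, Col6a5 and Col6a6, with the related Col26a1 and Col28a1, gave 0.03 to 0.19. The short-chain genes Col8a1 and Col8a2 gave 0.13 and 0.19, and the membrane-spanning collagens Col13a1, Col17a1, Col23a1 and Col25a1 gave -0.01 to 0.14.

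A miss of the threshold does not show equal levels, and the intervals set the limit. For the 45 genes that missed in the Tbr2 lines against NesGFP, the 95% intervals of the limma fit lay within -0.38 and 0.59. Of these, 35 differences were positive and 10 negative, and 3 had an unadjusted p under 0.05. In PomcGFP against NesGFP the 45 intervals lay within -0.61 and 0.74, with 37 differences positive and 8 negative, and 2 genes had an unadjusted p under 0.05. In kiTbr2GFP against tgTbr2GFP they lay within -0.66 and 0.64, and Col12a1 was the 1 gene of 53 with an unadjusted p under 0.05. None of the 54 passed as lower in kiTbr2GFP, where 0.684% of all genes did. In PomcGFP against the Tbr2 lines the intervals of the 53 genes lay within -0.45 and 0.82, with 42 differences positive and 11 negative.

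Genes of the enzymes and chaperones that make collagen were mostly lower in the Tbr2 lines than in NesGFP. Of 30 such genes 26 were tested, and 16 passed, all of them lower, with a median difference of -0.65 over the 26. Over all genes tested, 29.1% were lower and 19.8% higher in this comparison, and 24% lower and 15.9% higher in PomcGFP against NesGFP, and the counts of the 4 lists of matrix genes stand beside these shares. The 44 collagen genes had a median difference of 0.10. Plod1, a lysyl hydroxylase, measured -2.67 ± 0.10 (SE, limma adjusted p = 1.97e-08). P4hb, the disulfide isomerase that is the β subunit of prolyl 4-hydroxylase, measured -2.08 ± 0.14 (SE), and P3h2, a prolyl 3-hydroxylase, -1.87 ± 0.16 (SE). Several of these enzymes also act on other secreted proteins. PomcGFP had 14 of them lower than NesGFP and 1 higher, the procollagen peptidase gene Adamts3 (1.35, limma adjusted p = 0.007), with a median of -0.63.

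Of 14 basement membrane partners, 6 were lower and 2 higher in the Tbr2 lines than in NesGFP, with a median of -0.26. Sparc, a collagen-binding glycoprotein, measured -2.39 ± 0.14 (SE), Nid1, the nidogen that links laminin to type IV collagen, -1.27 ± 0.13 (SE), and Tinagl1 -0.88 ± 0.10 (SE). Frem1, a member of the Fraser complex, was higher by 0.60 ± 0.12 (SE) and Pxdn, the peroxidase that cross-links type IV collagen, by 0.41 ± 0.09 (SE). For Pxdn this joins unlike lines, with means of 8.41 in kiTbr2GFP, 7.81 in tgTbr2GFP and 7.69 in NesGFP. Its kiTbr2GFP minus tgTbr2GFP difference, 0.60 ± 0.11 (SE), passed the test (limma adjusted p = 0.0216). Frem1 was lower in PomcGFP than in the Tbr2 lines (-0.91 ± 0.13 SE, limma adjusted p = 0.00294). PomcGFP had 6 lower and 2 higher than NesGFP, with a median of -0.35.

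Of 17 receptors for collagen and laminin 16 were tested, and 9 were lower and 1 higher in the Tbr2 lines than in NesGFP, with a median of -0.40. The collagen receptor kinase Ddr1 measured -1.46 ± 0.10 (SE), Adgrg1, an adhesion receptor that binds type III collagen, -1.27 ± 0.10 (SE), and dystroglycan (Dag1), a laminin receptor, -1.26 ± 0.19 (SE). Lair1, a collagen receptor of immune cells, was higher by 0.30 ± 0.11 (SE, limma adjusted p = 0.0478). PomcGFP had 6 receptors that passed against NesGFP, all lower.

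Of 17 matrix proteases and their inhibitors 14 were tested, and 9 were lower and 3 higher in the Tbr2 lines than in NesGFP, with a median of -0.44. The inhibitors Timp2 and Timp4 measured -2.06 ± 0.13 and -1.88 ± 0.19 (SE), and the membrane protease Mmp14 measured -1.61 ± 0.14 (SE). Mmp16, another membrane protease, was higher by 1.05 ± 0.11 (SE), Mmp3 by 0.43 ± 0.15 (SE) and the inhibitor Timp1 by 0.28 ± 0.09 (SE). PomcGFP had 6 of this list lower and 2 higher than NesGFP. Endothelial, mural, meningeal fibroblast, astrocyte and oligodendrocyte markers were lower in the Tbr2 lines beside all 4 lists, as given above, and their part in these counts was not tested.

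**Figure D5:**
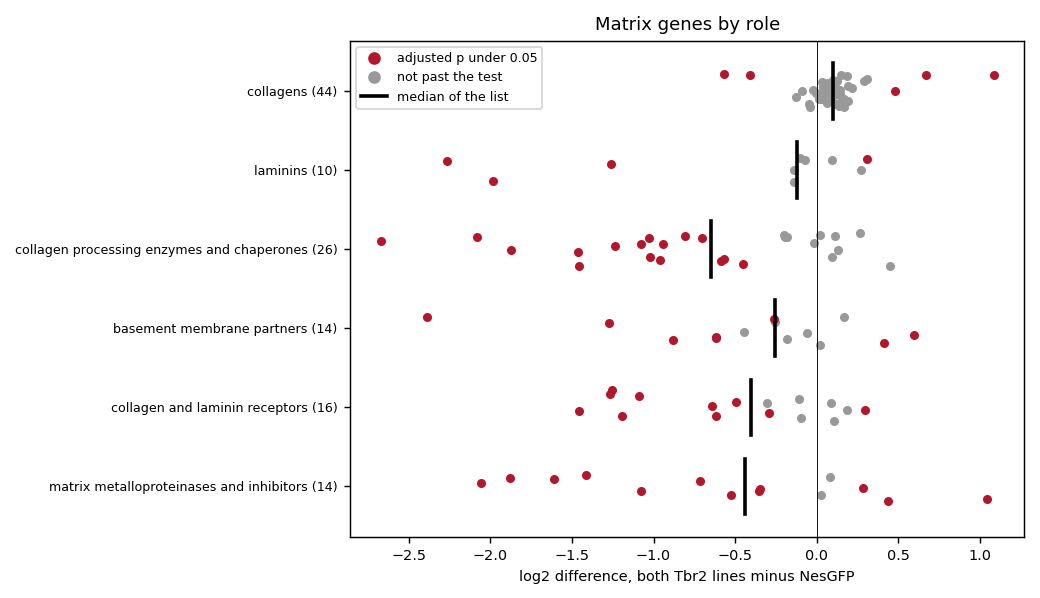
Difference in log2 level, both Tbr2 lines minus NesGFP, for each gene of the 4 lists of matrix genes below the 44 collagen and 10 laminin genes; red points passed the limma test and the bar is the median. The collagens cluster near 0 with a median of 0.10, the laminins have a median of -0.12, and the median of the collagen-making enzymes is -0.65.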

How the data were processed

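Per the submitters' processing notes, the authors made the deposited values with RMA in the oligo package, whose version is not given in the sources used here. The log2 scale of the deposited values was taken from the RMA name and the values' range. Of 28858 probe sets 21789 had a single symbol in the platform annotation, 1621 several and 5448 none, and 21698 matched a RefSeq gene. A gene was represented by its single-symbol probe set of highest mean, kept above the 25th percentile on at least 2 arrays.

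A limma 3.58.1 fit of the 4 lines (R 4.3.3, 7 residual and 4.22 prior degrees of freedom) covered all 11 arrays. It shares 1 estimate of the spread, since PomcGFP had 2 arrays. Tests were two-sided moderated tests with Benjamini-Hochberg adjustment over 16527 genes at 0.05, and the fit was tested on simulated data. Differences are log2 values of the first-named line minus the second, and summed marker levels are log2 of summed linear values.

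The genes, lists and tests were chosen with earlier results of these data known. Every collagen and laminin gene is named. Array values are given for type IV collagens, laminins and genes past a test, and for Col1a1, Col1a2 and Col3a1, chosen after their values were seen. From each list up to 3 genes per direction (2 for cell types) with the largest called difference in the Tbr2 lines against NesGFP are named. Of the 54 genes 40 had a RefSeq promoter entry (GRCm38.p6). Alternatives were other filters, probe set means, cyclic loess, median centring, an intensity trend, the compared lines alone, the replicate number as a block and leaving out each array. Python 3.11.15 with pandas 2.3.3 and matplotlib 3.10.9 made tables and figures.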

Additional observations from a re-analysis of the deposited data

Results flagged for a closer look

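Lama2 stood apart in 2 comparisons by a test of the difference itself. It was lower in PomcGFP than in both Tbr2 lines by a log2 difference of -1.04 (limma adjusted p = 0.000906), and both PomcGFP arrays lay below all 6 Tbr2 arrays. It was higher in kiTbr2GFP than in tgTbr2GFP by 0.79 (limma adjusted p = 0.0133), in 3 of 3 kiTbr2GFP arrays against every tgTbr2GFP array.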

How the results depend on the processing

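Over 9 counts of genes called and 170 alternatives, 163 counts stayed within 1.5 times their value and none of the 583 alternatives for 31 single-gene results turned a called direction. Of the latter 558 kept their side of the threshold, 17 lost the call and 8 gained one. Lama4, Lamc1, Lamb2, Col12a1 and Col11a1 passed against NesGFP under all alternatives, in the Tbr2 lines and in PomcGFP, as did Col4a1, Col4a2 and Col10a1 in the Tbr2 lines, except that Col10a1 was not tested with the filter at the 50th percentile, which left 38 of the 54 genes. In the Tbr2 lines against NesGFP the count of higher genes was 4, but 9 under cyclic loess and 7 with the replicate number as a block, and lay between 3 and 5 with 1 array left out. In PomcGFP against NesGFP it was 4, but 10 with the block, and between 2 and 5 with 1 array left out, with 2 without either PomcGFP array, when the lone PomcGFP array is assumed to vary like the other lines. In kiTbr2GFP against tgTbr2GFP it was 1, and between 0 and 1 with 1 array left out. The cause of these shifts was not tested. Lama1 and Lama3 passed as lower in the Tbr2 lines under cyclic loess (adjusted p = 0.0391 and 0.0359). Any pairing of arrays by replicate number was at most partial in the data. Deviations of same-numbered arrays correlated above 0.1 in 4 of 15 pairs. Among these were the 3 pairs of the third kiTbr2GFP, tgTbr2GFP and NesGFP arrays (0.134 to 0.262). Pairs with different numbers reached 0.124. Deviations were taken from the mean of the same line, so these correlations are not independent. Of 11 arrays 6 correlated best with their own number, a hint from the data and not from the design. The average level of the genes outside the F test's calls rose with the number in each line of 3 arrays. It rose from 7.046 to 7.347 in kiTbr2GFP, from 7.007 to 7.311 in tgTbr2GFP and from 7.046 to 7.195 in NesGFP. It was 7.245 on both PomcGFP arrays. Array medians also rose with the number in kiTbr2GFP, tgTbr2GFP and NesGFP, but not in PomcGFP. The cause of this rise was not tested. The block added Col20a1, Col9a1 and Lama2 in the Tbr2 lines, and Col10a1, Col15a1, Col22a1, Col6a5, Col9a1 and Col9a2 in PomcGFP, against NesGFP.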

Other observations

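Exactly equal deposited values on 2 or more arrays (within 1e-09) occurred in 21 of the 54 genes (38.89%) and in 39.65% of single-symbol probe sets. Col11a1, Col3a1, Col4a2 and Col4a5 were equal on both PomcGFP arrays, so their spread of 0 there is not a measure of replicate error. As rounded, each of these values also stood on an array of another line. The cause was not tested.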
